A study of Mus musculus with 32 samples.

Results

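The change from the late 1-cell to the late 2-cell stage was followed in total RNA of mouse embryos that carried no mutation and had a mixed B6/DBA background. The comparison rests on 4 of the 32 libraries of the study, chosen by their labels alone: 2 libraries of m+z+Dppa2 embryos at the 2-cell stage (28 hours post fertilization) against 2 of m+z+Dppa2 embryos at the 1-cell stage (12 hours post fertilization). In these names m refers to the maternal allele and z to the zygotic one, and both groups are the unmutated controls of the Dppa2 arm of the study, which has a second arm for the related nuclear protein Dppa4. For reference the text also uses 2 libraries each of 2-cell and 1-cell m+z+Dppa4 embryos, which are B6 controls, 2 libraries each of 2-cell and 1-cell m-z+Dppa2 embryos, which lack the maternal Dppa2 supply on the same mixed background, and 2 polyA RNA libraries each of 2-cell and 1-cell WT B6 embryos, given in their descriptions as single embryos. How many embryos went into a total RNA library, and whether replicates came from separate collections, the labels do not say, so p-values speak only to the spread among these libraries, part of which may be technical. Dppa2 itself, at chromosome 16, 48303908 to 48319723 of mm10, stood at 49.7 and 52.96 FPKM in 2-cell embryos, against 32.3 and 32.7 FPKM in 1-cell embryos. Dppa4 had 63.4 and 58.3 FPKM in 2-cell embryos, against 3.52 and 5.16 FPKM in 1-cell embryos.

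The fertilized mouse egg starts life with RNA laid down in the oocyte while its own genome is nearly silent. Stored RNAs are deadenylated and cleared in waves, and a minor and then a major burst of zygotic transcription follow, the major one during the 2-cell stage. The RNAs of the 2-cell embryo are therefore a mixture of what remains of the oocyte supply and what the new genome has made.

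The values are FPKM, fragments scaled to transcript length and to the fragments mapped in the library, as the authors deposited them. They are relative to the rest of the library and say nothing of the amount per embryo, so that neither synthesis nor clearance can be read from a change alone. In such bulk libraries fewer cells of a type and less RNA per cell cannot be told apart. Changes are differences of log2(FPKM + 1), 2-cell minus 1-cell, which understate the change of genes at low levels. They were tested with limma across 15068 genes in all 16 total RNA libraries. These include 2 libraries each of 2-cell and 1-cell m-z+Dppa4 embryos, which lack the maternal Dppa4 supply. Those libraries enter the filter and the estimate of spread but none of the changes given. The words "rose" and "fell" are used of genes whose Benjamini-Hochberg adjusted p was under 0.05.

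The 4 markers of the stages were read first. Tdpoz1, a 2-cell gene for a protein with TRAF and POZ domains, stood at 43.4 and 31.7 FPKM in 2-cell embryos, against 0.0158 and 0.0319 FPKM in 1-cell embryos. Obox6, an oocyte and embryo homeobox gene, stood at 94.2 and 77.1 FPKM in 2-cell embryos, against 0.112 and 0.0614 FPKM in 1-cell embryos. Both were close to absent before and abundant after, with log2 changes of 5.22 and 6.31. Zar1l, whose RNA-binding protein belongs to the oocyte's RNA storage system, stood at 11.1 and 8.44 FPKM in 2-cell embryos, against 185 and 204 FPKM in 1-cell embryos. Ooep, a member of the subcortical maternal complex of the egg, stood at 10.8 and 12.04 FPKM in 2-cell embryos, against 254 and 229 FPKM in 1-cell embryos. Both fell, with log2 changes of -4.19 and -4.29, and in each of the 4 genes the 2-cell libraries lay wholly on one side of the 1-cell libraries. The markers thus went with the labelled stages. They were chosen with earlier results of these data known, so this is no test of the labels.

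Sequences in front of the markers other than Obox6, and of other strong risers, are shown to let the letters be read beside the values. Each is the run of 250 bases before the annotated start in RefSeq on GRCm38.p6, 5′ to 3′ on the strand of the gene, and capitals mark the letters GGATTA or its reverse complement TAATCC, a core bound by homeodomain proteins of the Otx type. Tdpoz1 (chr3:93676284-93676533, minus strand), Obox3 (chr7:15639778-15640027, minus strand), Prps1 (chrX:140456353-140456602, plus strand) and Cd63 (chr10:128909095-128909344, plus strand) are genes that rose by more than 4 on the log2 scale and hold the core. Zar1l (chr5:150518160-150518409, minus strand) and Ooep (chr9:78378589-78378838, minus strand) are markers that fell, with no such letters in this window. Obox3, Prps1 and Cd63 were picked because they hold the core, so the sequences shown are no comparison of risers with fallers. Slc34a2 and Mt1, which had the largest rises, hold 0 matches in the same window.
Tdpoz1: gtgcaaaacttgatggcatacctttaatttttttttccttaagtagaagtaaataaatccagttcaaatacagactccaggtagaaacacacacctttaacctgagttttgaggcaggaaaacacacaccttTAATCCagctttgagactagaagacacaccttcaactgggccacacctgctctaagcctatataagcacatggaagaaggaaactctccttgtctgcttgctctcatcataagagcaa
Obox3: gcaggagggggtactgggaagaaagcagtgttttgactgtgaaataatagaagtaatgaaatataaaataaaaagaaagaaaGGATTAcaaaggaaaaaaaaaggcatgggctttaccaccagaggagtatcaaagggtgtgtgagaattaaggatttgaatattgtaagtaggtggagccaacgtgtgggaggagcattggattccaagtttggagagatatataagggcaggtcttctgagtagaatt
Prps1: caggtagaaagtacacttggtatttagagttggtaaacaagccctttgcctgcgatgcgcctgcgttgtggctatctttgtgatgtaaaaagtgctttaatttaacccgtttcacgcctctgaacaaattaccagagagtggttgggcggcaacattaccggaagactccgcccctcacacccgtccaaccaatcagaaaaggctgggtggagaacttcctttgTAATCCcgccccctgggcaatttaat
Cd63: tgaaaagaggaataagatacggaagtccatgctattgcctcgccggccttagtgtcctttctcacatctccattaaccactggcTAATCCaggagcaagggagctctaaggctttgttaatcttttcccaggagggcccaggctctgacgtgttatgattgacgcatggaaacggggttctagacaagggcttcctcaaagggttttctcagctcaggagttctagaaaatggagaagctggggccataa
Zar1l: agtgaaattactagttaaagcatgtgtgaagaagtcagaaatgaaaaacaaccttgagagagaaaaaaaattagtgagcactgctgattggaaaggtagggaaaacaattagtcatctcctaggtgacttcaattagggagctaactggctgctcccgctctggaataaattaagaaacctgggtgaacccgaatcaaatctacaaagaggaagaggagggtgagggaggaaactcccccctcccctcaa
Ooep: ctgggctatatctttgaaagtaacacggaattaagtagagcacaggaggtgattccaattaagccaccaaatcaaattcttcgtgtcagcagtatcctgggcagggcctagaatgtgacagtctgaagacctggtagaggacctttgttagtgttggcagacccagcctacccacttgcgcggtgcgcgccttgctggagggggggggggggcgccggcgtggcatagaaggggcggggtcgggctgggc

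Across genes the core was counted on both strands of the same window. It stood in 17 of 141 promoters of genes that rose by a log2 of at least 4 (12.1%) and in 8 of 166 of genes that fell by at least 3 (4.82%). Over all genes that rose the share was 7.25%, and over all that fell 6.65%. It was 6.68% over the genes tested and 7.21% over all 27025 promoters of that length. Besides the genes shown, the strongest risers with the core included Guca1a, Alppl2, Zfp352, Cct6a, Klhl11 and Kdm4c, named here after their values were seen. The GC box GGGCGG, found on either strand in 61.98% of promoters of genes tested and 35.4% of all promoters, stood in 54.6% of the strong risers and 42.8% of the strong fallers. The TATA box TATAAA stood in 7.80% and 9.64% of them, against 8.28% of genes tested and 14.3% of all promoters. For the CCAAT box the shares were 39.01% and 41.6%, against 41.7% of genes tested and 37.5% of all promoters. These shares describe letters in a window and were not tested.

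The composition of the libraries changed along with the stage. The share of summed FPKM held by nuclear protein-coding genes was 40.04% and 36.1% in the 2-cell libraries, against 66.01% and 68.7% in the 1-cell libraries. For mitochondrial genes it was 25.9% and 24.03% in the 2-cell libraries, against 12.5% and 10.5% in the 1-cell libraries. Protein-coding RNA thus held the smaller, and mitochondrial RNA the larger, share at the 2-cell stage. For the misc_RNA class, which includes the signal recognition particle RNAs Rn7s1 and Rn7s2 and the elongation regulator Rn7sk, it was 16.7% and 20.6% in the 2-cell libraries, against 9.02% and 9.53% in the 1-cell libraries. The libraries also differed in total. FPKM summed to 589834 and 629583 in the 2-cell libraries, against 446451 and 436254 in the 1-cell libraries. The number of genes at 1 FPKM or more was 13071 and 12090 in the 2-cell libraries, against 11015 and 10842 in the 1-cell libraries. Because the file holds no read counts, sequencing depth is unknown. Replicates correlated at r = 0.968 at the 2-cell stage and 0.990 at the 1-cell stage, and libraries of different stages at 0.843 to 0.861 across genes, which are not independent replicates. Scaling each library to a common sum moved the median of all genes by -0.36, and scaling to the nuclear protein-coding sum, added after the data were seen, by 0.27 on the log2 scale.

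**Figure D1:**
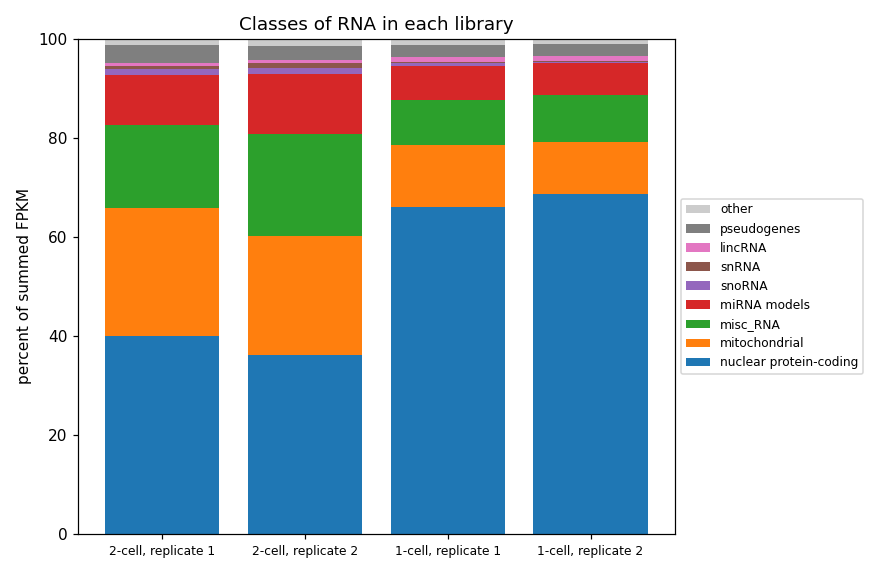
Share of summed FPKM held by each class of RNA in the 2-cell and 1-cell libraries of the mixed-background controls, as stacked bars that start at 0 and reach 100%, 1 bar per library. Nuclear protein-coding genes take 40.04% and 36.1% of the 2-cell bars and 66.0% and 68.7% of the 1-cell bars, and the mitochondrial and misc_RNA parts are taller at the 2-cell stage.

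Rises and falls between the stages were nearly equal in number. Of 15068 genes tested, 4783 rose (31.7%) and 4498 fell (29.9%), so that 61.6% of all genes passed in either direction and a count of list members is read against those shares. With a common sum per library 3750 rose and 5802 fell, and with the protein-coding sum 5711 rose and 3489 fell. No gene that passed with a change above 1 on the log2 scale changed sign under these scalings or under median-ratio scaling. The rises reached further than the falls: 1742 genes rose and 1072 fell by a log2 of at least 2, and 261 rose and 40 fell by at least 4. In 9277 of the genes that passed, the 2-cell libraries did not overlap the 1-cell libraries, as was the case for 79.6% of all genes tested. Each gene named below as risen or fallen is among them.

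**Figure D2:**
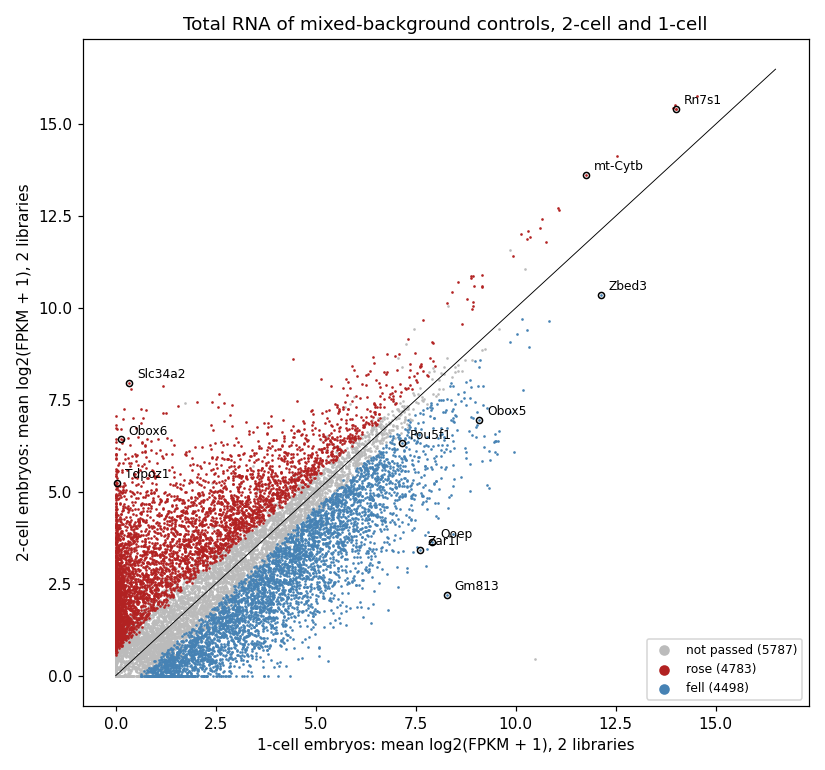
Mean log2(FPKM + 1) of the 2 libraries at the 2-cell stage (vertical axis) against that of the 2 libraries at the 1-cell stage (horizontal axis) for the 15068 genes tested, coloured by whether the gene rose, fell or did not pass. The 4783 genes that rose reach up along the left edge, where 1-cell levels are near 0, and the 4498 that fell lie under the diagonal, with the 4 markers and several genes of the text labelled.

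A part of the 2-cell RNA came from genes that had hardly been present before. In 736 genes both 2-cell libraries held at least 1 FPKM and both 1-cell libraries under 0.1 FPKM, and 455 of them were listed at 0 in both 1-cell libraries. The opposite pattern was seen in 149 genes. These sets were chosen on their values and carry no test. The newly detected set held 496 protein-coding genes, 55 processed pseudogenes and 63 long intergenic or antisense RNAs, with a median 2-cell level of 3.74 FPKM, and 136 of its genes exceeded 10 FPKM. Of the newly detected genes 244 met the same limits in the B6 controls, and of the lost genes 14 did.

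The largest rises were found in a few protein-coding genes and several pseudogenes. Slc34a2, a sodium-dependent phosphate transporter, had the largest change: it stood at 263 and 234 FPKM in 2-cell embryos, against 0.263 and 0.257 FPKM in 1-cell embryos (log2 change 7.63, SE 0.40, limma adjusted p = 2.88e-08). Mt1, the metal-binding protein metallothionein 1, stood at 262 and 189.8 FPKM in 2-cell embryos, against 0.679 and 0 FPKM in 1-cell embryos. Neither RNA reached 1 FPKM in a 1-cell library. Gabpa, an ETS-domain transcription factor, had 145 and 158 FPKM in 2-cell embryos, against 0.812 and 0.3002 FPKM in 1-cell embryos. Vimp, a selenoprotein of the endoplasmic reticulum, stood at 110.3 and 98.2 FPKM in 2-cell embryos, against 0.0383 and 0 FPKM in 1-cell embryos. Each of these 4 genes was under 1 FPKM in both 1-cell libraries and above 90 FPKM in both 2-cell libraries. The other 6 of the 10 largest rises were the pseudogenes Gm11517, Gm12622, Gm5612, Gm12617 and Gm5590 and the antisense transcript Gm13068, with 2-cell values between 87.8 and 262 FPKM and 1-cell values between 0 and 1.91 FPKM.

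The 10 largest falls reached further down than a log2 of -4. Gm813, an uncharacterized gene at chromosome 16, 58613675 to 58616978, stood at 3.45 and 3.70 FPKM in 2-cell embryos, against 312 and 311 FPKM in 1-cell embryos, and its log2 change was -6.09 (SE 0.32, limma adjusted p = 3.05e-08). Pabpn1l, the poly(A)-binding protein of oocytes and early embryos, stood at 1.53 and 3.74 FPKM in 2-cell embryos, against 111 and 110.1 FPKM in 1-cell embryos. Both were among the clearly expressed RNAs of the 1-cell embryo. Rgs2, a brake on G-protein signalling, stood at 7.90 and 6.09 FPKM in 2-cell embryos, against 214 and 214 FPKM in 1-cell embryos. Tdrd12, a Tudor-domain protein of the piRNA pathway, had 3.55 and 1.86 FPKM in 2-cell embryos, against 78.9 and 78.8 FPKM in 1-cell embryos. All 4 genes lost nearly all of their share of the RNA. Ninj2, Oas1h, the glutaredoxin gene Glrx, A430033K04Rik, 3110009E18Rik and the long noncoding RNA Gm36307 complete the 10, with log2 changes from -4.94 to -4.54.

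Most genes kept in arrays of copies and known from 2-cell embryos rose. Of the 2-cell array genes 23 rose and 3 fell of 27 tested (median 3.23). Pramel7, of the PRAME family, stood at 53.2 and 50.7 FPKM in 2-cell embryos, against 0.0739 and 0 FPKM in 1-cell embryos. The deubiquitinase gene Usp17lb had 63.6 and 58.1 FPKM in 2-cell embryos, against 0.889 and 0.518 FPKM in 1-cell embryos. Zfp352, a zinc-finger gene long used as a 2-cell marker, stood at 76.9 and 75.7 FPKM in 2-cell embryos, against 1.70 and 1.79 FPKM in 1-cell embryos. These 3 were abundant in both 2-cell libraries and at under 2 FPKM in each 1-cell library. Zscan4d, which encodes a telomere-associated zinc-finger protein of 2-cell embryos, stood at a lower 8.07 and 8.03 FPKM in 2-cell embryos, against 1.48 and 2.16 FPKM in 1-cell embryos and rose by 1.69. Duxf3, the transcription factor that opens the 2-cell programme earlier in that stage, went the other way with 0.779 and 0.305 FPKM in 2-cell embryos, against 3.48 and 5.35 FPKM in 1-cell embryos, and Sp110 and Arg2 of the same list also fell. Members of an array are close copies, so reads can be split between them and the value of a single copy is uncertain. The call of Zscan4d was lost without 1-cell replicate 1.

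The arrays appeared on the map as clusters of newly detected genes. The stretch of chromosome 3 from 93 to 94 Mb held 11 newly detected genes, Tdpoz1 to Tdpoz5 among them, and 16 of its 17 genes tested rose while 0 fell. Tdpoz4 stood at 40.95 and 20.1 FPKM in 2-cell embryos, against a listed 0 in both 1-cell libraries. Tdpoz5 had 11.6 and 8.16 FPKM in 2-cell embryos, against 0.0210 and 0.0259 FPKM in 1-cell embryos. A further 6 newly detected genes lay in the next megabase, among them the pseudogene Gm5543 with 90.03 and 81.2 FPKM in 2-cell embryos, against 0 and 0.00833 FPKM in 1-cell embryos. The densest window was chromosome 11, 60 to 61 Mb, with 15 newly detected genes, and all but Mief2 are pseudogene models numbered between Gm12612 and Gm12627. Gm12627 stood at 45.1 and 46.9 FPKM in 2-cell embryos, against 0.0232 and 0.0603 FPKM in 1-cell embryos. Gm12613 had 32.4 and 34.7 FPKM in 2-cell embryos, against 0.0116 and 0.0206 FPKM in 1-cell embryos. On chromosome 17, 35 to 36 Mb, 10 genes of the major histocompatibility region were newly detected. Among them were H2-Q4, H2-Q5, H2-Q6 and H2-Q7 of the Qa class I group, and H2-Q6 stood at 20.7 and 11.8 FPKM in 2-cell embryos, against a listed 0 in both 1-cell libraries. By the choice of the set, all were under 0.1 FPKM in both 1-cell libraries. The windows and their genes were picked on these values, so they are given as a description without a test.

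Several gene families moved as a block, the Zscan4 genes among them, which also belong to the list of 2-cell arrays. Of the Trim43 genes, a set of RING-finger genes on chromosome 9, 3 of 3 rose, with means of 19.7 to 71.8 FPKM at the 2-cell stage against 0.0118 to 0.437 FPKM at the 1-cell stage. Of the Zscan4 genes tested on chromosome 7, 5 of 5 rose, with means of 5.57 to 14.2 FPKM at the 2-cell stage against 0 to 1.82 FPKM at the 1-cell stage. On the same chromosome 9 as Trim43, 13 of 13 genes of the Fbxw group of oocyte F-box proteins fell, and their means were 1.38 to 59.2 FPKM at the 2-cell stage against 9.49 to 432 FPKM at the 1-cell stage. The Oas1 group of oligoadenylate synthetase genes on chromosome 5 fell in 6 of 6 cases, with means of 0.975 to 24.9 FPKM at the 2-cell stage against 2.72 to 267 FPKM at the 1-cell stage. These families were chosen after their values were seen.

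**Figure D3:**
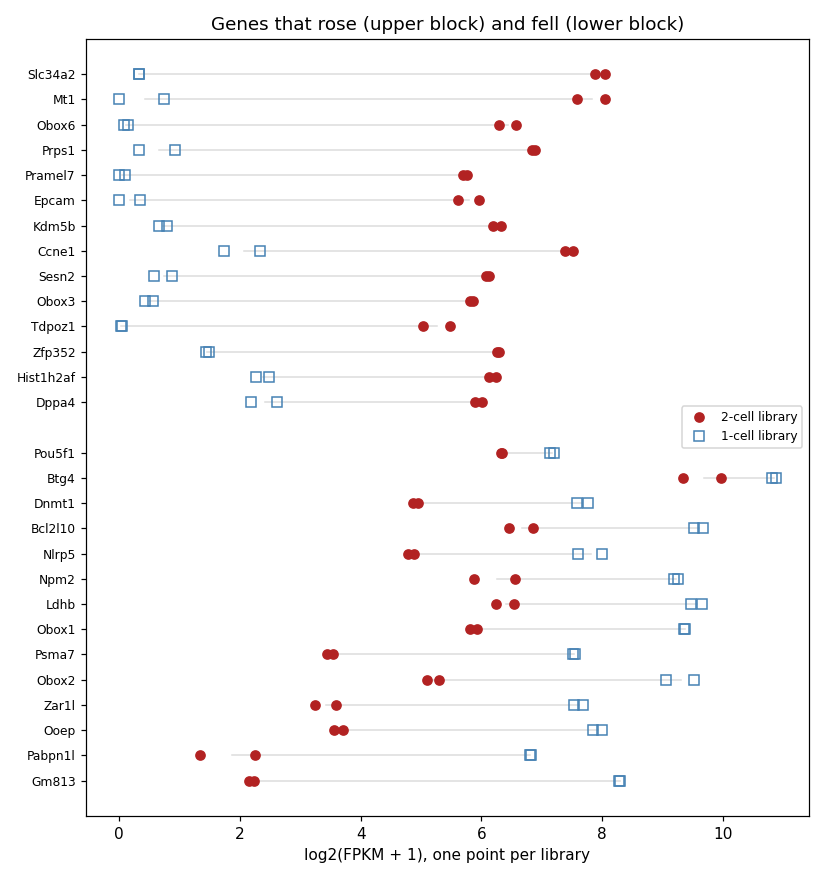
Level of 28 genes of the text in each library, on a log2(FPKM + 1) axis, with 2-cell libraries as filled circles and 1-cell libraries as open squares, ordered by the size of their change. For every gene above the gap both 2-cell points lie right of the 1-cell points, and for every gene below it they lie left of them.

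Every tested gene of the subcortical maternal complex, a protein lattice under the egg surface, fell. Of the complex and its partners 0 rose and 8 fell of 8 tested (median -2.74). Nlrp5, also known as MATER, stood at 28.5 and 26.5 FPKM in 2-cell embryos, against 254 and 192 FPKM in 1-cell embryos. Padi6, the peptidylarginine deiminase of the egg, had 32.9 and 32.5 FPKM in 2-cell embryos, against 295 and 247 FPKM in 1-cell embryos. Summed over the list, the level was 1400.5 and 1583 FPKM in the 2-cell libraries, against 5975 and 6019 FPKM in the 1-cell libraries. In the wider group of oocyte Nlrp genes 1 rose and 10 fell of 13 tested, from 17 listed. Nlrp9b had 11.4 and 7.51 FPKM in 2-cell embryos, against 189 and 158 FPKM in 1-cell embryos. Nlrp3, the inflammasome sensor, rose and stood at 1.37 and 1.06 FPKM in 2-cell embryos, against 0.112 and 0 FPKM in 1-cell embryos.

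Among RNA storage and RNA decay factors falls outnumbered rises. Of the storage genes 4 rose and 11 fell of 15 tested. Zar1 stood at 11.4 and 11.4 FPKM in 2-cell embryos, against 94.1 and 128 FPKM in 1-cell embryos. Cpeb1, which governs cytoplasmic polyadenylation, had 6.67 and 9.79 FPKM in 2-cell embryos, against 63.9 and 27.7 FPKM in 1-cell embryos. Dazl, a translational regulator of germ cells, stood at 32.7 and 24.6 FPKM in 2-cell embryos, against 192 and 207 FPKM in 1-cell embryos. Among the members that rose were Pum2, Ddx6 and Igf2bp3, by 0.38 to 0.93 on the log2 scale. Of the deadenylation and decay genes 5 rose and 15 fell of 26 tested. Btg4, the adaptor that brings the CCR4-NOT deadenylase to maternal RNA, stood at 642 and 1001 FPKM in 2-cell embryos, against 1803 and 1873 FPKM in 1-cell embryos (log2 change -1.20, SE 0.22, limma adjusted p = 0.000465). The deadenylase gene Cnot6l stood at 54.4 and 138 FPKM in 2-cell embryos, against 249 and 281 FPKM in 1-cell embryos. Both fell, and Btg4 stayed the more abundant of them per length. The scaffold gene Cnot1, which rose, had 61.9 and 53.8 FPKM in 2-cell embryos, against 34.97 and 34.7 FPKM in 1-cell embryos. Zcchc11, a terminal uridylyl transferase, stood at 15.3 and 9.84 FPKM in 2-cell embryos, against 0.0414 and 0.0321 FPKM in 1-cell embryos. Besides Cnot1 and Zcchc11 the risers were Cnot6, Ythdf2 and Cnot8. With a common sum per library the calls of Ddx6, Pum2, Cnot1, Cnot6 and Cnot8 were lost and the change of Igf2bp3 turned to -0.08. The call of Igf2bp3 was also lost without 1-cell replicate 2 or 2-cell replicate 2, and that of Cnot8 without either 1-cell replicate or 2-cell replicate 2.

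Zona pellucida genes and secreted oocyte factors that passed all fell, while other oocyte lists held members on both sides. Of zona pellucida and secreted oocyte factors 0 rose and 10 fell of 12 tested, from 13 listed. The growth factor gene Gdf9 had 51.9 and 65.7 FPKM in 2-cell embryos, against 233 and 204 FPKM in 1-cell embryos. The zona gene Zp3 had 19.6 and 15.97 FPKM in 2-cell embryos, against 27.3 and 28.2 FPKM in 1-cell embryos, and its call was lost with the protein-coding sum. Of oocyte transcription factors 3 rose and 5 fell of 9 tested, from 10 listed. Nobox stood at 12.8 and 11.2 FPKM in 2-cell embryos, against 123 and 123 FPKM in 1-cell embryos. Figla had 0 and 1.45 FPKM in 2-cell embryos, against 8.77 and 7.15 FPKM in 1-cell embryos, and its call was lost without 2-cell replicate 1. The TFIID subunit gene Taf4b rose and stood at 42.4 and 42.05 FPKM in 2-cell embryos, against 8.28 and 7.69 FPKM in 1-cell embryos. Of genes of fertilization 4 rose and 4 fell of 14 tested, from 17 listed. That is 28.6% each way, near the 31.7% and 29.9% over all genes tested. Izumo1r, the egg receptor Juno that binds sperm, stood at 5.38 and 4.36 FPKM in 2-cell embryos, against 49.9 and 60.9 FPKM in 1-cell embryos. Cd9, the tetraspanin needed for fusion, had 22.5 and 16.9 FPKM in 2-cell embryos, against 26.6 and 21.3 FPKM in 1-cell embryos, which did not pass (limma adjusted p = 0.462).

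The breadth of the falls was read from a ranking that these libraries did not set. Of the 100 protein-coding genes highest in 1-cell B6 controls, 85 fell and 2 rose here, where 29.9% and 31.7% of all genes did. Their share of protein-coding FPKM was 8.30% and 9.99% in 2-cell libraries, against 18.5% and 18.5% in 1-cell libraries. Genes picked as high at the 1-cell stage lean toward falls by that choice, so the count is a description. Of the 100 highest in 2-cell B6 controls, 28 rose and 42 fell. The single most abundant nuclear protein-coding gene of the 1-cell embryo, Zbed3, which encodes a zinc-finger protein of the maternal complex, stood at 1248 and 1395 FPKM in 2-cell embryos, against 4404 and 4561 FPKM in 1-cell embryos.

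The Obox homeobox genes changed places within the family. Of this family 3 rose and 4 fell of 7 tested, from 8 listed. Obox3 stood at 54.9 and 57.2 FPKM in 2-cell embryos, against 0.472 and 0.346 FPKM in 1-cell embryos. Obox8 had 77.02 and 68.8 FPKM in 2-cell embryos, against a listed 0 in both 1-cell libraries. Together with Obox6 these are the members that rose, and each was under 1 FPKM in both 1-cell libraries. Obox1 stood at 60 and 55.1 FPKM in 2-cell embryos, against 656 and 662 FPKM in 1-cell embryos. Obox2 had 33.1 and 38.4 FPKM in 2-cell embryos, against 531 and 729.6 FPKM in 1-cell embryos. Obox5 had 123 and 123 FPKM in 2-cell embryos, against 530.1 and 562 FPKM in 1-cell embryos. Obox7 also fell. The summed family was at 454 and 423 FPKM in the 2-cell libraries, against 1793 and 2031 FPKM in the 1-cell libraries, so the members that rose did not make up the share that Obox1, Obox2 and Obox5 had held.

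Among cell cycle genes those of meiotic arrest and of mitosis mostly fell. Of kinases and brakes of meiosis and mitosis 3 rose and 18 fell of 26 tested, from 27 listed. Mos, the kinase that holds the egg in metaphase, stood at 1.60 and 2.89 FPKM in 2-cell embryos, against 5.64 and 8.33 FPKM in 1-cell embryos. Ccnb1 had 88.7 and 86.4 FPKM in 2-cell embryos, against 177 and 196 FPKM in 1-cell embryos. The spindle checkpoint kinase gene Ttk had 25.9 and 28.8 FPKM in 2-cell embryos, against 167 and 165 FPKM in 1-cell embryos. All 3 fell, with no overlap between the stages. The risers were Cdc25c, Cdk1 and Aurkb. Cdk1, the kinase of mitotic entry, stood at 58.5 and 70.5 FPKM in 2-cell embryos, against 22.5 and 18.8 FPKM in 1-cell embryos. The Cdc25 phosphatases, which release Cdk1 from inhibition, parted. Cdc25c stood at 35.97 and 20.1 FPKM in 2-cell embryos, against 1.48 and 2.23 FPKM in 1-cell embryos. Cdc25a fell and stood at 16.1 and 7.59 FPKM in 2-cell embryos, against 62.8 and 64.7 FPKM in 1-cell embryos. Aurkc, the Aurora kinase of germ cells, and Ccnb2 also fell, with log2 changes of -2.44 and -2.44.

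Genes of the next cell cycle entry rose more often than they fell. Of G1 to S cyclins, inhibitors and E2F factors 17 rose and 3 fell of 27 tested, from 30 listed (median 0.72). Ccne1, the cyclin that drives S phase entry, stood at 182 and 167 FPKM in 2-cell embryos, against 2.33 and 4.03 FPKM in 1-cell embryos (log2 change 5.42, SE 0.34, limma adjusted p = 7.84e-08). The repressor E2f7 stood at 27.8 and 43.8 FPKM in 2-cell embryos, against 0.149 and 0.119 FPKM in 1-cell embryos. E2f7 was close to absent at the 1-cell stage, while Ccne1 was detected there at a low level. The cell cycle inhibitor Cdkn1a had 16.1 and 16.2 FPKM in 2-cell embryos, against 1.11 and 0.433 FPKM in 1-cell embryos. The related inhibitor Cdkn1b fell and stood at 3.63 and 3.61 FPKM in 2-cell embryos, against 14.3 and 18.01 FPKM in 1-cell embryos. Replication proteins showed the reverse balance: 2 rose and 20 fell of 40 tested. Rpa3, of the single-strand binding complex, stood at 11.3 and 6.23 FPKM in 2-cell embryos, against 58.6 and 71.6 FPKM in 1-cell embryos. Rfc3, of the clamp loader, had 4.80 and 2.79 FPKM in 2-cell embryos, against 29.6 and 28.7 FPKM in 1-cell embryos. Pcna, the sliding clamp, stood at 63.7 and 43.96 FPKM in 2-cell embryos, against 62.1 and 63.99 FPKM in 1-cell embryos and did not pass (limma adjusted p = 0.263). The 2 risers were the helicase activator gene Cdc45 and the licensing inhibitor gene Gmnn, whose call was lost with a common sum per library. Of the anaphase promoting complex 2 rose and 6 fell of 16 tested.

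Genes of the polymerases of ribosomal and transfer RNA rose more often than they fell. Of RNA polymerase I and III genes 15 rose and 4 fell of 24 tested (median 0.98). Ubtf, the nucleolar factor that opens ribosomal RNA genes, stood at 53.2 and 67.3 FPKM in 2-cell embryos, against 3.26 and 2.33 FPKM in 1-cell embryos. Polr1c, a subunit of both enzymes, had 39.7 and 29.2 FPKM in 2-cell embryos, against 1.56 and 2.30 FPKM in 1-cell embryos. Taf1a and Taf1b, of the selectivity factor SL1, fell, and Taf1a stood at 47.7 and 39.1 FPKM in 2-cell embryos, against 195 and 225 FPKM in 1-cell embryos. Of the 12 subunits of RNA polymerase II, 6 rose and 4 fell. The largest subunit Polr2a had 38.9 and 17.2 FPKM in 2-cell embryos, against 8.85 and 7.004 FPKM in 1-cell embryos. Pause release and elongation genes gave 9 rises and 8 falls among 25 tested. Hexim1, which holds the elongation kinase in check, stood at 44.6 and 32.02 FPKM in 2-cell embryos, against 0.570 and 0.655 FPKM in 1-cell embryos. Cdk9, that kinase, had 56.2 and 29.7 FPKM in 2-cell embryos, against 4.05 and 2.70 FPKM in 1-cell embryos. Among TBP and associated factors 6 rose and 9 fell of 25. Tbp stood at 30.1 and 19.2 FPKM in 2-cell embryos, against 53.6 and 87.3 FPKM in 1-cell embryos. Gtf2b had 33.4 and 21.98 FPKM in 2-cell embryos, against 164 and 184 FPKM in 1-cell embryos. Of Mediator subunits 10 rose and 14 fell of 32. Med29 had 57.8 and 43.2 FPKM in 2-cell embryos, against 2.31 and 1.14 FPKM in 1-cell embryos. Med17 had 6.77 and 5.87 FPKM in 2-cell embryos, against 72.5 and 79.7 FPKM in 1-cell embryos.

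Genes of ribosome production did likewise. Of nucleolar proteins of ribosomal RNA processing 19 rose and 8 fell of 38 tested. With a common sum per library 13 of them rose and 11 fell, and in the B6 controls 10 rose and 10 fell. Nop16 stood at 38.2 and 31.8 FPKM in 2-cell embryos, against a listed 0 in both 1-cell libraries. Fbl, the methyltransferase fibrillarin, had 43.4 and 34.8 FPKM in 2-cell embryos, against 4.45 and 2.78 FPKM in 1-cell embryos. Bms1, a GTPase of the small subunit processome, fell and stood at 29.6 and 26.2 FPKM in 2-cell embryos, against 319 and 329 FPKM in 1-cell embryos. Of cytoplasmic ribosomal protein genes 51 rose and 4 fell of 83 tested (median 1.26). Rps19 stood at 86.02 and 49.3 FPKM in 2-cell embryos, against 1.63 and 0.520 FPKM in 1-cell embryos. Rpsa had 65.2 and 45.4 FPKM in 2-cell embryos, against 1.71 and 0.516 FPKM in 1-cell embryos. Both were under 2 FPKM in each 1-cell library. Rpl4 fell and stood at 111 and 111 FPKM in 2-cell embryos, against 161 and 159 FPKM in 1-cell embryos, but its call was lost under protein-coding and median-ratio scaling. Summed ribosomal protein FPKM was 5218 and 4665 FPKM in the 2-cell libraries, against 2434 and 2349.8 FPKM in the 1-cell libraries. These genes have many processed copies in the genome, so the split of reads between gene and copy is uncertain. Among translation initiation factors 21 rose and 14 fell of 53. The scanning factor gene Eif1a stood at 13.7 and 11.3 FPKM in 2-cell embryos, against 0.289 and 0 FPKM in 1-cell embryos. Its X-linked relative Eif1ax had 5.09 and 3.63 FPKM in 2-cell embryos, against 20.8 and 23.01 FPKM in 1-cell embryos. Eif4e1b, an oocyte form of the cap-binding protein, had 55.3 and 74.01 FPKM in 2-cell embryos, against 214 and 207 FPKM in 1-cell embryos. Aminoacyl-tRNA synthetase genes gave 9 rises and 12 falls of 33. Sars, which fell, stood at 12.7 and 8.96 FPKM in 2-cell embryos, against 65.5 and 72.6 FPKM in 1-cell embryos. Yars, which rose, had 7.33 and 8.95 FPKM in 2-cell embryos, against a listed 0 in both 1-cell libraries.

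Chromatin genes moved both ways, and forms known from the oocyte were among those that fell. Of the genes that write, keep and remove DNA methylation 4 rose and 9 fell of 18 tested, from 19 listed. Dnmt1, the maintenance methyltransferase, stood at 29.7 and 28.2 FPKM in 2-cell embryos, against 190.3 and 216 FPKM in 1-cell embryos. Its partner Uhrf1 had 27.3 and 24.1 FPKM in 2-cell embryos, against 209.8 and 203 FPKM in 1-cell embryos. Both fell to under 30 FPKM. Tet3, the dioxygenase supplied by the oocyte, stood at 58.9 and 76.2 FPKM in 2-cell embryos, against 391 and 478 FPKM in 1-cell embryos. Tet1, which rose, had 8.63 and 8.32 FPKM in 2-cell embryos, against 0.233 and 0.325 FPKM in 1-cell embryos. Dppa3, which guards maternal methylation, fell and stood at 642 and 708 FPKM in 2-cell embryos, against 1279 and 1212 FPKM in 1-cell embryos. Tet3 and Tet1 moved in opposite directions, and per length Tet3 was the more abundant of them in each 2-cell library. Among histone chaperones 4 rose and 10 fell of 18 tested. Npm2, the egg nucleoplasmin, stood at 57.7 and 93.4 FPKM in 2-cell embryos, against 608 and 579 FPKM in 1-cell embryos. Hira, which loads histone H3.3, rose and stood at 14.4 and 15.4 FPKM in 2-cell embryos, against 6.88 and 6.78 FPKM in 1-cell embryos, a call that was lost with a common sum per library. In the chromatin assembly factor Chaf1b rose and Chaf1a fell, and Chaf1a stood at 35.9 and 43.4 FPKM in 2-cell embryos, against 136 and 145 FPKM in 1-cell embryos. The rise of Chaf1b did not pass without 2-cell replicate 1.

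Histone genes themselves rose widely in total RNA. Of replication-dependent histone genes 38 rose and 4 fell of 64 tested, from 65 listed (median 1.23). Hist1h2af stood at 74.4 and 68.4 FPKM in 2-cell embryos, against 3.84 and 4.59 FPKM in 1-cell embryos. Hist1h3i had 37.97 and 25.2 FPKM in 2-cell embryos, against 1.002 and 0.887 FPKM in 1-cell embryos. These are the core histones H2A and H3 in their replication-dependent forms. The testis and oocyte forms Hist1h2aa and Hist1h2ba fell, and Hist1h2aa stood at 66.8 and 93.4 FPKM in 2-cell embryos, against 217 and 171 FPKM in 1-cell embryos. Replacement histones, which are made outside S phase, gave 4 rises and 3 falls of 11 tested. H1foo, the linker histone of the egg, stood at 22.9 and 29.8 FPKM in 2-cell embryos, against 171 and 275 FPKM in 1-cell embryos. H2afz, the H2A.Z gene, had 56.4 and 39.1 FPKM in 2-cell embryos, against 3.41 and 2.17 FPKM in 1-cell embryos. Histone gene copies share sequence, so single values are uncertain. Messages of the replication-dependent genes end in a stem-loop and not in a poly(A) tail. In polyA RNA of WT B6 embryos 7 of the same list rose and 5 fell.

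Enzymes that mark histones moved both ways. In Polycomb and H3K9 methylation 8 genes rose and 8 fell of 23, 34.8% each way and near the shares over all genes tested. The methyltransferase gene Suv39h1 stood at 31.9 and 17.02 FPKM in 2-cell embryos, against a listed 0 in both 1-cell libraries. Setdb1 had 16.1 and 18.6 FPKM in 2-cell embryos, against 97.9 and 102 FPKM in 1-cell embryos. Ezh2 had 56.6 and 68.7 FPKM in 2-cell embryos, against 134 and 159 FPKM in 1-cell embryos. For H3K4 and H3K36, 7 rose and 9 fell of 24. Kdm5b, a demethylase of H3K4, stood at 79.3 and 71.8 FPKM in 2-cell embryos, against 0.723 and 0.576 FPKM in 1-cell embryos (log2 change 5.54, SE 0.30, limma adjusted p = 3.56e-08). Kdm4c, a demethylase of H3K9 counted with them, had 13.3 and 18.8 FPKM in 2-cell embryos, against a listed 0 in both 1-cell libraries. Kdm1b, the demethylase of growing oocytes, fell and stood at 20.04 and 19.9 FPKM in 2-cell embryos, against 72.04 and 97.3 FPKM in 1-cell embryos. Acetyltransferases and deacetylases rose in 10 and fell in 4 of 23 cases. Hdac1 had 65.3 and 56.7 FPKM in 2-cell embryos, against 4.57 and 5.03 FPKM in 1-cell embryos. Remodellers rose in 9 and fell in 7 of 23 cases, but with a common sum per library 4 rose and 12 fell. Chd1, which binds H3K4 methylation, stood at 97.8 and 79.01 FPKM in 2-cell embryos, against 6.57 and 7.65 FPKM in 1-cell embryos. Smarca4, the SWI/SNF motor BRG1, had 51.03 and 51.5 FPKM in 2-cell embryos, against 31.7 and 38.8 FPKM in 1-cell embryos, and its call was lost with a common sum per library and without 1-cell replicate 1 or either 2-cell replicate.

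Transcription factors of the early embryo rose in the larger part of cases. Of this list 22 rose and 5 fell of 38 tested, from 42 listed (median 0.73). Klf5, a factor of the inner cell mass and trophectoderm, stood at 50.05 and 42.05 FPKM in 2-cell embryos, against 0.0530 and 0 FPKM in 1-cell embryos. Zfp42, also called Rex1, had 27.9 and 11.4 FPKM in 2-cell embryos, against 0.975 and 0.287 FPKM in 1-cell embryos. The zinc-finger factor Yy1 stood at 55.9 and 42.9 FPKM in 2-cell embryos, against 3.62 and 3.17 FPKM in 1-cell embryos. All 3 rose, and Klf5 was close to absent before. Nr5a2, an orphan nuclear receptor active at genome activation, rose by 0.77 and stood at 27.9 and 28.7 FPKM in 2-cell embryos, against 16.3 and 16.1 FPKM in 1-cell embryos, a call that was lost with a common sum per library. Pou5f1, the pluripotency factor OCT4 that the oocyte also supplies, fell and stood at 78.7 and 79.7 FPKM in 2-cell embryos, against 145 and 139 FPKM in 1-cell embryos. OCT4 RNA was thus present at both stages, in a smaller share at the 2-cell stage. Klf17, another oocyte-supplied factor, had 129.5 and 140.2 FPKM in 2-cell embryos, against 364 and 351 FPKM in 1-cell embryos. Tfap2c stood at 22.2 and 13.5 FPKM in 2-cell embryos, against 19.3 and 23.8 FPKM in 1-cell embryos and did not pass (limma adjusted p = 0.280). Its 2-cell and 1-cell libraries overlapped.

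Signalling genes included receptors and feedback inhibitors that had been near 0. Of FGF, MAPK and growth factor genes 10 rose and 8 fell of 30 tested, from 34 listed. These 33.3% and 26.7% are near the shares over all genes tested. Fgf4 stood at 7.87 and 6.54 FPKM in 2-cell embryos, against a listed 0 in both 1-cell libraries. The inhibitor Spry2 had 13.5 and 15.2 FPKM in 2-cell embryos, against 0.0626 and 0.143 FPKM in 1-cell embryos. Dusp6, a phosphatase that ends ERK signalling, stood at 23.4 and 12.1 FPKM in 2-cell embryos, against 0.666 and 1.44 FPKM in 1-cell embryos. All 3 rose, and these inhibitors are themselves known to be induced by the pathway. Smad7, the inhibitor of TGF-beta signalling, stood at 30.7 and 31.2 FPKM in 2-cell embryos, against 0.107 and 0.150 FPKM in 1-cell embryos. Kit, a receptor long studied in oocytes, fell and stood at 41.1 and 40.3 FPKM in 2-cell embryos, against 77.4 and 76.5 FPKM in 1-cell embryos. In the Hippo and Wnt pathways 13 rose and 8 fell of 28 tested, from 30 listed. The Wnt receptor Fzd5 stood at 19.7 and 13.9 FPKM in 2-cell embryos, against 0.145 and 0.0678 FPKM in 1-cell embryos. The co-receptor Lrp5, which fell, had 18.4 and 17.8 FPKM in 2-cell embryos, against 68.01 and 71.7 FPKM in 1-cell embryos. Lats2, a Hippo kinase, stood at 1.27 and 1.20 FPKM in 2-cell embryos, against 0.849 and 1.27 FPKM in 1-cell embryos and did not pass.

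Among metabolic genes those of nucleotide synthesis rose more often than they fell, and those of the tricarboxylic acid cycle fell more often. Of one-carbon and nucleotide synthesis genes 15 rose and 8 fell of 31 tested, from 32 listed. Prps1, which makes the ribose phosphate that purine synthesis starts from, stood at 118 and 113 FPKM in 2-cell embryos, against 0.900 and 0.252 FPKM in 1-cell embryos (log2 change 6.24, SE 0.33, limma adjusted p = 3.34e-08). Ppat, the enzyme of the committed purine step, stood at 48.8 and 23.3 FPKM in 2-cell embryos, against 0.110 and 0.175 FPKM in 1-cell embryos. Impdh2, of guanine nucleotide synthesis, had 53.4 and 44.4 FPKM in 2-cell embryos, against 0.756 and 0.602 FPKM in 1-cell embryos. The list's median was above 0 and turned below 0 when each library was scaled to a common sum. Of pyruvate entry and tricarboxylic acid cycle genes 7 rose and 20 fell of 32 tested (median -0.94). Sdhd, a subunit of succinate dehydrogenase, stood at 2.08 and 1.34 FPKM in 2-cell embryos, against 36.8 and 43.9 FPKM in 1-cell embryos. Pdhx, of the pyruvate dehydrogenase complex, had 13.5 and 12.5 FPKM in 2-cell embryos, against 79.5 and 77.3 FPKM in 1-cell embryos. Mpc1, a subunit of the mitochondrial pyruvate carrier, rose and stood at 23.2 and 26.6 FPKM in 2-cell embryos, against 5.90 and 7.45 FPKM in 1-cell embryos, though not past the threshold without 1-cell replicate 1 or 2-cell replicate 2.

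In glycolysis and redox defence related genes moved in opposite directions. Of glycolysis and lactate genes 9 rose and 5 fell of 19 tested, from 22 listed. Ldha stood at 17.02 and 10.4 FPKM in 2-cell embryos, against 0.408 and 0.132 FPKM in 1-cell embryos. Ldhb, the lactate dehydrogenase of the oocyte, had 74.7 and 92.02 FPKM in 2-cell embryos, against 800.2 and 710.4 FPKM in 1-cell embryos. The A form rose and the B form fell, yet the B form was the more abundant per length in each 2-cell library. Glucose transporters did likewise: Slc2a3 rose and stood at 7.58 and 4.90 FPKM in 2-cell embryos, against 0.117 and 0 FPKM in 1-cell embryos. Slc2a1 fell and stood at 6.95 and 1.67 FPKM in 2-cell embryos, against 10.2 and 14.5 FPKM in 1-cell embryos, though not past the threshold without 1-cell replicate 2 or 2-cell replicate 2. In redox defence 12 rose and 11 fell of 28 tested, from 29 listed. The peroxiredoxin gene Prdx4 stood at 34.6 and 26.01 FPKM in 2-cell embryos, against 0.648 and 0.113 FPKM in 1-cell embryos. The selenoenzyme gene Gpx4 had 37.4 and 30.5 FPKM in 2-cell embryos, against 4.47 and 6.88 FPKM in 1-cell embryos. Both rose and did not overlap between stages. The superoxide dismutase gene Sod1 had 76.8 and 61.02 FPKM in 2-cell embryos, against 345 and 311 FPKM in 1-cell embryos. Txnip, which binds thioredoxin, had 20.9 and 15.1 FPKM in 2-cell embryos, against 134 and 239 FPKM in 1-cell embryos. Sod1 and Txnip fell.

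Mitochondrially encoded genes of the respiratory chain rose, and its nuclear genes moved both ways. All 13 mitochondrially encoded protein genes rose (median 1.67). mt-Cytb stood at 13280.2 and 12049.6 FPKM in 2-cell embryos, against 3722 and 3249 FPKM in 1-cell embryos. Among nuclear genes of respiratory complex I 9 rose and 15 fell of 36. Ndufs5 stood at 1.44 and 1.97 FPKM in 2-cell embryos, against 45.5 and 50.2 FPKM in 1-cell embryos. Ndufa8 had 1.25 and 0.554 FPKM in 2-cell embryos, against 22.1 and 26.4 FPKM in 1-cell embryos. For complexes III to V 14 rose and 13 fell of 43, which at 32.6% and 30.2% is near the shares over all genes tested. Atp5g1, a subunit of the ATP synthase, stood at 52.9 and 36.7 FPKM in 2-cell embryos, against 4.53 and 4.43 FPKM in 1-cell embryos. Mitochondrial ribosomal protein genes rose in 14 and fell in 31 of 77 cases. Mrps31 was listed at 0 in both 2-cell libraries, against 14.4 and 17.03 FPKM in the 1-cell libraries. Mrpl20, which rose, stood at 36.4 and 19.5 FPKM in 2-cell embryos, against 2.19 and 0.837 FPKM in 1-cell embryos. The difference between the nuclear and mitochondrial genomes was not tested.

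Proteasome subunits fell more often than they rose, and autophagy and lysosome genes rose more often than they fell, with no test of the difference between the lists. Of proteasome subunits 8 rose and 20 fell of 35 tested, from 39 listed (median -0.88). Psma7, a subunit of the core ring, stood at 10.7 and 9.82 FPKM in 2-cell embryos, against 182 and 187 FPKM in 1-cell embryos. Psmb1, which rose, had 54.8 and 44.1 FPKM in 2-cell embryos, against 13.6 and 9.86 FPKM in 1-cell embryos. Of autophagy and lysosome genes 16 rose and 6 fell of 28 tested, from 30 listed (median 1.26). Ctsl, the protease cathepsin L, stood at 142 and 114 FPKM in 2-cell embryos, against 0.637 and 0.543 FPKM in 1-cell embryos. It was under 1 FPKM in both 1-cell libraries. The membrane proteins of the lysosome parted. Lamp2 rose and stood at 34.8 and 38.8 FPKM in 2-cell embryos, against 2.35 and 2.81 FPKM in 1-cell embryos. Lamp1 fell and stood at 12.1 and 8.65 FPKM in 2-cell embryos, against 62.9 and 74.6 FPKM in 1-cell embryos.

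Stress genes moved both ways, with some rises of over 5 on the log2 scale. Of p53 and DNA damage genes 11 rose and 5 fell of 23 tested, from 25 listed. Sesn2, a p53 target that restrains mTORC1, stood at 69.2 and 66.2 FPKM in 2-cell embryos, against 0.839 and 0.499 FPKM in 1-cell embryos (log2 change 5.37, SE 0.25, limma adjusted p = 1.85e-08). Its 1-cell libraries were both under 1 FPKM. Chek2 stood at 29.4 and 20.4 FPKM in 2-cell embryos, against 1.12 and 1.09 FPKM in 1-cell embryos. Chek1, the replication checkpoint kinase, had 40.2 and 34.3 FPKM in 2-cell embryos, against 139.9 and 151 FPKM in 1-cell embryos, so that the checkpoint kinases changed in opposite directions. Mdm2 stood at 58.8 and 77.8 FPKM in 2-cell embryos, against 59.1 and 67.1 FPKM in 1-cell embryos and did not pass. Amino acid and unfolded protein stress genes rose in 8 and fell in 8 of 27 cases, 29.6% each way and near the shares over all genes tested. The cochaperone gene Dnajb9 had 177 and 138 FPKM in 2-cell embryos, against 5.71 and 4.21 FPKM in 1-cell embryos. Ddit3, the factor CHOP, had 10.8 and 11.1 FPKM in 2-cell embryos, against 52.3 and 49.1 FPKM in 1-cell embryos. Of heat shock genes 11 rose and 8 fell of 29 tested, from 30 listed. Hspa1a, a classical early transcript of the zygotic genome, stood at 11.04 and 6.91 FPKM in 2-cell embryos, against 0.644 and 1.25 FPKM in 1-cell embryos. Hsp90aa1 had 128 and 189 FPKM in 2-cell embryos, against 428 and 917 FPKM in 1-cell embryos. Apoptosis regulators rose in 8 and fell in 6 of 19 cases. The survival factor Mcl1 stood at 39.1 and 43.6 FPKM in 2-cell embryos, against 3.60 and 2.59 FPKM in 1-cell embryos. Bcl2l10, the BCL2 relative of oocytes, had 87.05 and 115 FPKM in 2-cell embryos, against 731 and 814 FPKM in 1-cell embryos.

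Genes of the cell surface included several first seen at the 2-cell stage. Among adhesion, junction and polarity genes 9 rose and 8 fell of 22 tested, from 23 listed. Epcam stood at 61.5 and 47.96 FPKM in 2-cell embryos, against 0.268 and 0 FPKM in 1-cell embryos. The claudin gene Cldn6 had 8.96 and 4.35 FPKM in 2-cell embryos, against 0 and 0.0312 FPKM in 1-cell embryos. Cdh1, the E-cadherin gene, stood at 46.1 and 35.6 FPKM in 2-cell embryos, against 30.5 and 42.4 FPKM in 1-cell embryos and did not pass (limma adjusted p = 0.484). Of amino acid and osmolyte transporters 8 rose and 7 fell of 18 tested, from 23 listed. The glutamine transporter gene Slc1a5 stood at 16.4 and 8.96 FPKM in 2-cell embryos, against a listed 0 in both 1-cell libraries. Slc7a5, for large neutral amino acids, had 32.9 and 22.3 FPKM in 2-cell embryos, against 4.82 and 6.39 FPKM in 1-cell embryos. Slc6a9, the glycine transporter that sets the volume of early embryos, fell and stood at 17.3 and 19.3 FPKM in 2-cell embryos, against 54.99 and 65.9 FPKM in 1-cell embryos. For the sodium pump, water channels and pH 6 rose and 6 fell of 14 tested, from 16 listed.

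**Figure D4:**
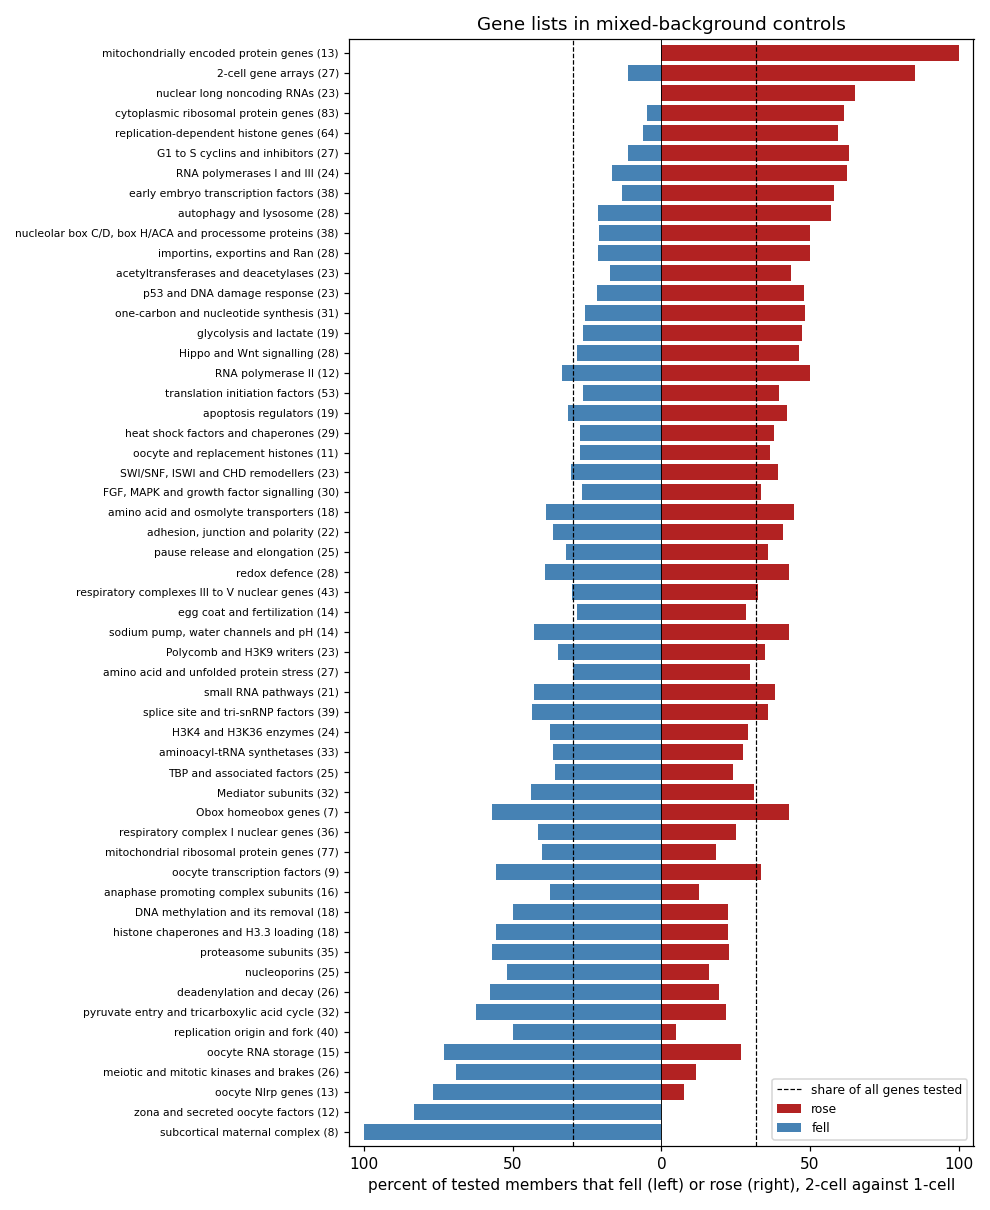
Share of tested members that rose (to the right) and fell (to the left) in each gene list, in percent, with the number tested beside the name and dashed lines at the shares over all genes tested, 31.7% for rises and 29.9% for falls. Mitochondrially encoded genes reach 100% to the right and the subcortical maternal complex 100% to the left, and most other lists hold members on both sides. With a common sum per library the larger of the counts changed side in 10 of these lists, among them Hippo and Wnt signalling, glycolysis and heat shock genes, and with the protein-coding sum in 5, among them the Mediator.

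In nuclear transport and RNA processing related genes also parted. Of importins, exportins and Ran genes 14 rose and 6 fell of 28 tested. Kpna7, the importin alpha of oocytes, stood at 10.1 and 10.6 FPKM in 2-cell embryos, against 100.3 and 99.5 FPKM in 1-cell embryos. Kpna1 had 34.7 and 47.3 FPKM in 2-cell embryos, against 0.448 and 0.428 FPKM in 1-cell embryos. Nucleoporin genes rose in 4 and fell in 13 of 25 cases. Nup37 had 7.75 and 4.67 FPKM in 2-cell embryos, against 38.6 and 41.3 FPKM in 1-cell embryos. Ranbp2 had 53.9 and 48.1 FPKM in 2-cell embryos, against 8.09 and 5.66 FPKM in 1-cell embryos. Among splicing factors 14 rose and 17 fell of 39. Snrpb, a core protein of spliceosomal particles, stood at 15.5 and 8.27 FPKM in 2-cell embryos, against 0.982 and 0.569 FPKM in 1-cell embryos. Prpf6, of the tri-snRNP, had 12.1 and 10.8 FPKM in 2-cell embryos, against 101 and 107 FPKM in 1-cell embryos. In small RNA pathways 8 rose and 9 fell of 21. Dicer1 stood at 37.5 and 36.8 FPKM in 2-cell embryos, against 94.1 and 93.5 FPKM in 1-cell embryos. Asz1, of the germline piRNA machinery, had 4.34 and 7.33 FPKM in 2-cell embryos, against 44.1 and 48.3 FPKM in 1-cell embryos.

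The small noncoding RNAs that passed nearly all rose. Among small nucleolar RNAs 121 of 241 tested rose and 0 fell (median 1.60). Of the small nuclear RNAs 44 of 90 rose and 1 fell, and of the scaRNAs, which guide modification of spliceosomal RNA, 13 of 19 rose and 0 fell. Mitochondrial transfer RNAs rose in 20 of 22 cases. Of the long intergenic RNAs 97 rose and 134 fell of 392, close to the shares over all genes, and with the protein-coding sum 109 rose and 112 fell. Within the list of nuclear long noncoding RNAs and hosts of small nucleolar RNAs 15 rose and 0 fell of 23 tested, from 29 listed. This list also counts the abundant misc_RNA genes Rn7s1, Rn7s2 and Rn7sk among its rises. Malat1 stood at 26.9 and 25.6 FPKM in 2-cell embryos, against 3.41 and 1.35 FPKM in 1-cell embryos. Snhg3 had 33.9 and 17.8 FPKM in 2-cell embryos, against 0.701 and 0.412 FPKM in 1-cell embryos. Dancr had 11.2 and 12.2 FPKM in 2-cell embryos, against a listed 0 in both 1-cell libraries. Total RNA libraries capture such short RNAs unevenly, and the FPKM of a short gene is sensitive to this. Rn7s1 stood at 36978 and 52411 FPKM in 2-cell embryos, against 16536 and 16529 FPKM in 1-cell embryos. Rn7sk had 19735 and 16682 FPKM in 2-cell embryos, against 5465 and 6458 FPKM in 1-cell embryos. The mitochondrial ribosomal RNA mt-Rnr1 had 44011 and 50646 FPKM in 2-cell embryos, against 18065 and 14607 FPKM in 1-cell embryos. It, mt-Rnr2, Rn7s2, mt-Nd1, mt-Nd2 and the miRNA model Gm24270, the other most abundant RNAs, rose by 1.42 to 1.78 on the log2 scale. The highest of all values belonged to the miRNA model Gm23935, with 47601 and 65453 FPKM in 2-cell embryos, against 25331 and 22662 FPKM in 1-cell embryos, and its rise did not pass with a common sum or without either 1-cell replicate or 2-cell replicate 2.

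The genes that rose spanned less of the genome and had fewer exons, though their transcripts were of similar length. Nuclear protein-coding genes that rose by at least 4 on the log2 scale had a median span of 11341 bases and 5 exons in GENCODE M21, against 21445 bases and 7 exons in genes that fell by at least 3. Single-exon genes made up 7.61% of the first and 0.474% of the second set. The median longest transcript was 2368 bases in the first and 2271 bases in the second set. Over all genes that rose it was 3220 bases, over those that fell 3197 bases and over those that did not pass 3486 bases. Over all genes that rose the median span was 18470 bases, over those that fell 29186 bases and over those that did not pass 26879.5 bases. These are descriptions of the annotation, given without a test.

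RNA of other cells was looked for with lists of markers. Of 14 cumulus and granulosa markers 7 were listed at 0 in all 4 libraries, and the list summed to 5.78 and 1.999 FPKM in the 2-cell libraries, against 5.89 and 10.1 FPKM in the 1-cell libraries. Only 2 of these markers passed the filter on low values. Amh, Inha, Lhcgr and Ptx3 were among those at 0. Of 10 epithelium and fibroblast markers 7 were at 0, and the list summed to 8.13 and 7.81 FPKM in the 2-cell libraries, against 10.3 and 7.48 FPKM in the 1-cell libraries. Of 12 sperm markers 5 were at 0, and the list summed to 74.2 and 91.04 FPKM in the 2-cell libraries, against 107 and 112 FPKM in the 1-cell libraries. The protamine gene Prm2 had 0.289 and 1.20 FPKM in 2-cell embryos, against 8.57 and 13.8 FPKM in 1-cell embryos. Protamine RNA is carried by sperm, but Prm2 held only a small part of the sum of the list. Of the 5 sperm markers tested, 0 rose, 2 fell and 3 did not pass (median -0.20), where 29.9% of all genes tested fell. Blood and immune markers were at 0 in 5 of 10 cases and summed to 14.9 and 4.92 FPKM in the 2-cell libraries, against 0.111 and 0 FPKM in the 1-cell libraries. The beta globin genes Hbb-bs and Hbb-bt and the leukocyte gene Ptprc were among those at 0. In that list Cd74, Hba-a1 and Hba-a2 passed and rose, with Hba-a2 at 5.31 and 1.93 FPKM in 2-cell embryos, against a listed 0 in both 1-cell libraries. The blood sum and the newly detected immune genes of chromosome 17 are thus both on the 2-cell side, and the part of the one in the other was not tested.

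The same step of development was then read in libraries whose values do not enter these changes. The B6 and m-z+Dppa2 calls come from the same fit, however, and share each gene's estimated spread with the calls above. Their overlap with those calls is therefore not independent, whereas polyA RNA was fitted on its own. In the B6 controls 24.9% of the genes tested rose and 24.2% fell. Of the genes that rose in mixed-background embryos 68.9% also rose in B6 embryos, which was 87.7% of the rises there, and of those that fell 69.99% also fell, which was 86.3% of the falls there. Only 8 genes rose in mixed-background and fell in B6 embryos, and 8 did the reverse. Across genes, which are not replicates, the changes correlated at r = 0.906. The genes that rose had a median change of 1.63 in mixed-background embryos, where they were chosen, and 1.13 in B6 embryos. In the m-z+Dppa2 embryos 28.8% rose and 28.4% fell, and 78.1% of the rises and 81.2% of the falls of the controls recurred there, which made up 85.96% and 85.2% of the calls of that group. In polyA RNA of WT B6 embryos, a table normalized on its own, 17.4% of 18506 genes rose and 8.42% fell. Among 13916 genes that were tested in both, 50.4% of the rises and 30.8% of the falls recurred, which were 77.3% and 90.1% of the polyA calls.

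The markers and main groups can be followed through these tables. Tdpoz1 changed by 5.22 in mixed-background embryos, 4.34 in B6 embryos and 5.65 in polyA RNA, and Obox6 by 6.31, 5.53 and 8.83. Zar1l changed by -4.19, -3.54 and -2.82, and Ooep by -4.29, -3.38 and -4.73. All 4 thus went the same way in each. Of the cytoplasmic ribosomal protein genes 51 rose and 4 fell in mixed-background embryos, 36 and 11 in B6 embryos and 76 and 1 in polyA RNA. Of the proteasome genes 8 rose and 20 fell in mixed-background embryos, 2 and 20 in B6 embryos, but 7 and 5 in polyA RNA. In the list of 2-cell arrays 23, 24 and 20 genes rose in that order of tables. In polyA RNA rises also outnumbered falls for replication (8 and 4), mitochondrial ribosomal protein (20 and 8) and complex I genes (10 and 3). Falls stayed ahead there for the subcortical maternal complex (0 and 7), RNA storage (2 and 8) and zona and secreted factors (0 and 6).

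Whether the step differed between backgrounds was tested directly, as the change in mixed-background embryos minus that in B6 embryos. This difference passed in 21 genes (0.139%), 7 with a higher (0.0465%) and 14 with a lower (0.0929%) change in mixed-background embryos, and 2310 genes had an unadjusted p under 0.05. The count rests on single libraries. It was 94 without mixed-background 2-cell replicate 1, 193 without mixed-background 2-cell replicate 2 and 672 without B6 2-cell replicate 1, but 0, 1, 0, 1 and 1 without mixed-background 1-cell replicates 1 and 2, B6 1-cell replicates 1 and 2 and B6 2-cell replicate 2 in turn. The mixed-background and B6 controls belong to different arms of the study, so background and arm cannot be told apart. The m-z+Dppa2 embryos share both with the mixed-background controls, and their changes lay nearer to either side by gene. Oosp1 changed by -0.14 there, against -1.33 in mixed-background and -0.11 in B6 controls, and Gm15571 by 1.55, against -0.12 and 1.98. Tceal8 changed by -2.76 there, against -3.21 and 0.055, and Agpat9 by 2.85, against 2.92 and -0.71. These contrasts with m-z+Dppa2 embryos were not tested.

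Most genes that passed had the lower change in mixed-background embryos. Gemin7, a protein of the SMN complex that assembles spliceosomal particles, stood at 1.21 and 2.75 FPKM in mixed-background 2-cell embryos, against 52.9 and 35.5 FPKM in mixed-background 1-cell embryos, and at 24.8 and 22.8 FPKM in B6 2-cell embryos, against 39.9 and 25.04 FPKM in B6 1-cell embryos (difference -3.55, SE 0.55, limma adjusted p = 0.0384). It fell in mixed-background embryos and did not pass in B6 embryos. Mfap2, a protein of extracellular microfibrils, stood at 5.11 and 7.83 FPKM in mixed-background 2-cell embryos, against 32.2 and 32.3 FPKM in mixed-background 1-cell embryos, and at 80.1 and 60.7 FPKM in B6 2-cell embryos, against 54.4 and 47.9 FPKM in B6 1-cell embryos. Rab3b, a small GTPase of secretory vesicles, stood at 2.21 and 1.12 FPKM in mixed-background 2-cell embryos, against 72.4 and 38.9 FPKM in mixed-background 1-cell embryos, and at 9.07 and 14.9 FPKM in B6 2-cell embryos, against 29.3 and 39.8 FPKM in B6 1-cell embryos, and fell in both. Tceal8, an X-linked gene, was near 0 in B6 embryos at both stages and stood at 5.67 and 6.45 FPKM in 2-cell embryos, against 48.1 and 85.3 FPKM in 1-cell embryos, in the mixed background. The pseudogene Gm15571 was listed at 0 in both mixed-background 2-cell libraries and stood at 3.27 and 5.13 FPKM in 2-cell libraries, against 0.499 and 0.120 FPKM in 1-cell libraries, in B6 embryos. Mgst3, a glutathione transferase, and Mb21d2 had differences of -2.01 and -1.80, and the microRNA model Mir8092 had the widest of -4.50 at levels under 7 FPKM in all 8 libraries. The 6 others of this direction were Eef2k, 4933427D06Rik, Bcl2l10, Fastkd1, Oosp1 and Klf17, named after their values were seen, with differences from -1.76 to -1.06.

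Genes with the larger rise in mixed-background embryos included a gene of meiosis. Sycp3, of the axial element of meiotic chromosomes, stood at 115 and 104 FPKM in mixed-background 2-cell embryos, against 15.3 and 12.4 FPKM in mixed-background 1-cell embryos, and at 58.3 and 61.9 FPKM in B6 2-cell embryos, against 23.4 and 20.3 FPKM in B6 1-cell embryos (difference 1.48, SE 0.22, limma adjusted p = 0.0384), and rose in both backgrounds. Agpat9, an acyltransferase of glycerolipid synthesis, stood at 19.3 and 6.67 FPKM in mixed-background 2-cell embryos, against 0.670 and 0.633 FPKM in mixed-background 1-cell embryos, and at 12.6 and 13.4 FPKM in B6 2-cell embryos, against 20.8 and 22.8 FPKM in B6 1-cell embryos. The 2-cell libraries lay above the 1-cell libraries in mixed-background embryos and below them in B6 embryos, where it did not pass. Ugcg, which makes glucosylceramide, stood at 40.1 and 40.9 FPKM in mixed-background 2-cell embryos, against 9.17 and 10.1 FPKM in mixed-background 1-cell embryos, and at 74.8 and 59.8 FPKM in B6 2-cell embryos, against 62.9 and 50.4 FPKM in B6 1-cell embryos, with the difference lying mainly at the 1-cell stage. Nucb2, Rbm34 and Snapc3, a subunit of the complex that activates small nuclear RNA genes, had differences of 2.91, 2.13 and 2.50. Gm27028, a long intergenic RNA, was seen in both 2-cell libraries of the mixed-background controls, at 3.14 and 2.74 FPKM. It was listed at 0 in their 1-cell libraries and in all 4 B6 libraries. It was also listed at 0 in the m-z+Dppa2 libraries of both stages, which share the mixed background. In polyA RNA of WT B6 embryos, fitted on its own, the other genes rose as well. Their changes there were 2.33 for Sycp3, 2.31 for Agpat9, 1.89 for Ugcg, 2.93 for Nucb2, 3.31 for Rbm34 and 3.11 for Snapc3.

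**Figure D5:**
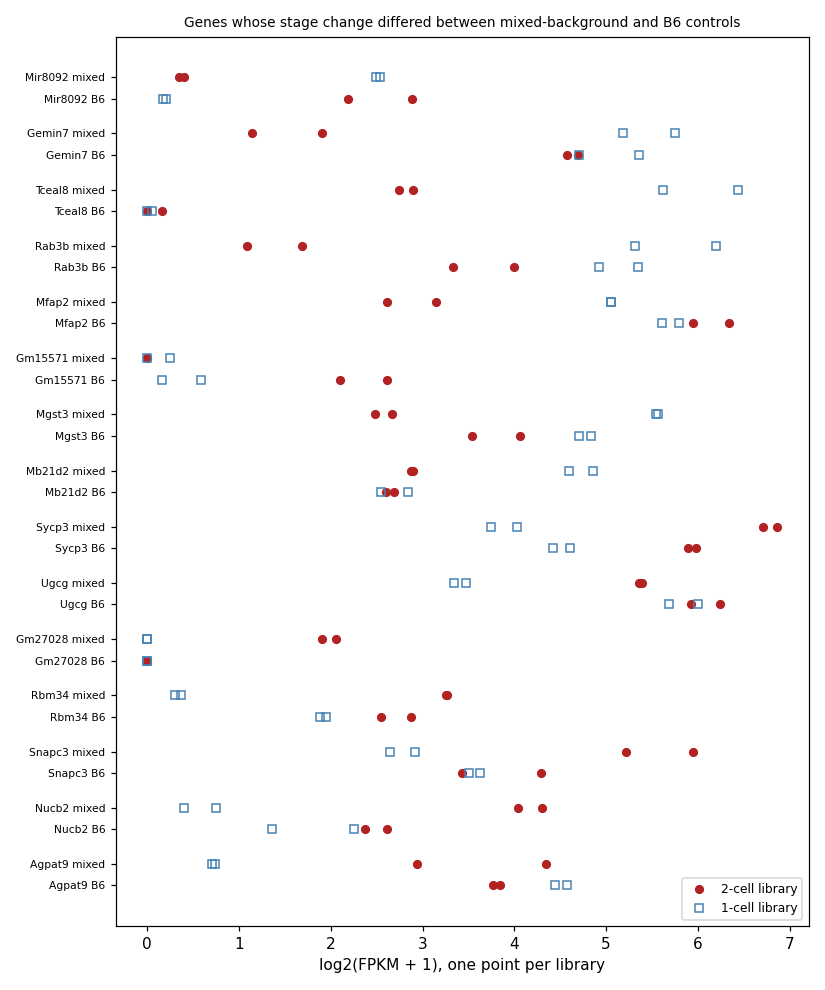
Level of the 15 genes of the test between backgrounds in each control library, on a log2(FPKM + 1) axis, with mixed-background embryos above B6 embryos for each gene and 2-cell libraries as filled circles and 1-cell libraries as open squares. For Gemin7, Mfap2 and Tceal8 the mixed-background circles lie well left of the squares, while the B6 points of Gemin7 and Tceal8 lie close together.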

How the data were processed

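Total RNA was measured in 16 libraries of late 2-cell and late 1-cell mouse embryos, in 8 groups of 2, and polyA RNA in others. The total RNA groups are m+z+Dppa2, m-z+Dppa2, m+z+Dppa4 and m-z+Dppa4 embryos at each stage. The authors deposited FPKM per gene, not counts. Per the labels' protocols a stranded SMARTer kit turned lysed embryos into total RNA libraries, and per the submitters' processing notes HISAT2 2.1.0, StringTie 1.3.3b and mm10 were used. Of annotation, filters and strand setting the sources used here say nothing, so reads of overlapping and antisense genes may not be separable. FPKM holds no read counts, so sequencing depth is unknown and no counting interval can be given.

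From these values log2(FPKM + 1) was computed for 15068 of 46078 genes, those with at least 1 FPKM in at least 2 of the 16 libraries. limma 3.58.1 in R 4.3.3 fitted 1 mean per group with trended, robust moderation (statmod 1.5.0), and p-values were two-sided and adjusted by Benjamini-Hochberg over all genes tested at a threshold of 0.05. The fit was tested on simulated data. polyA RNA was fitted on its own.

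Gene positions and types came from GENCODE M21 (mm10), which matched 45229 identifiers, and promoter sequences from RefSeq on GRCm38.p6. The members and gene lists were chosen with earlier results of these data known. Genes were named from the stage markers, the key members of each list and up to 4 members with the largest rise and up to 4 with the largest fall, the 10 largest rises and falls over all genes, the 10 most abundant genes of each stage and the 8 largest differences between backgrounds in each direction. Named outside this rule after their values were seen were Guca1a, Alppl2, Cd63, Klhl11, Cnot8, Tdpoz4, Tdpoz5, Gm5543, Mief2, the Gm pseudogenes of chromosome 11 and the H2-Q genes. Dppa2, the gene of the arm, and the cell markers listed at 0 were also outside it.

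Alternatives were a pseudocount of 0.1, no filter, a filter at 5 FPKM, scaling to a common sum (TPM scaling) or by median ratios, fits of the 4 libraries compared or of the 8 control libraries, a replicate block, each replicate left out in turn, and scaling to the protein-coding sum, which was chosen after seeing the data.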

Additional observations from a re-analysis of the deposited data

Results flagged for a closer look

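The change between stages differed between mixed-background and B6 controls in 21 genes, by the limma test of the difference itself at an adjusted p under 0.05. The values are changes in mixed-background embryos minus changes in B6 embryos on the log2(FPKM + 1) scale. Among genes with the lower change in mixed-background embryos the differences were -4.50 for Mir8092, -3.55 for Gemin7, -3.26 for Tceal8, -2.90 for Rab3b and -2.62 for Mfap2. They were -2.11 for Gm15571, -2.01 for Mgst3, -1.80 for Mb21d2, -1.76 for Eef2k, -1.72 for 4933427D06Rik, -1.71 for Bcl2l10, -1.45 for Fastkd1, -1.22 for Oosp1 and -1.06 for Klf17. Among genes with the higher change they were 1.48 for Sycp3, 1.72 for Ugcg, 1.98 for Gm27028, 2.13 for Rbm34, 2.50 for Snapc3, 2.91 for Nucb2 and 3.62 for Agpat9. Background and study arm cannot be told apart in this design.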

How the results depend on the processing

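The numbers of genes that rose and fell between stages stayed within 1.5 times the reported 4783 and 4498 under each alternative, though with a common sum per library 3750 rose and 5802 fell and with the protein-coding sum 5711 rose and 3489 fell. Leaving out 1 of the 4 replicates gave 3858 to 4893 rises and 3710 to 4221 falls. Of 236 named genes that passed, 20 lost the call in at least 1 alternative, 12 of them with a common sum. The sign turned for Igf2bp3 with a common sum (-0.081) and for genes that had not passed. With a common sum these were Cdh1 (-0.29), Lats2 (-0.15) and Mdm2 (-0.36), and with the protein-coding sum Cd9 (0.071), Pcna (0.11) and Tfap2c (0.050). With 1 replicate left out, changes ranged from -0.065 to 0.40 for Cdh1, -0.021 to 0.28 for Lats2, -0.097 to 0.30 for Mdm2, -0.51 to 0.015 for Pcna, -0.63 to 0.048 for Tfap2c and -0.25 to 0 for Gm15571. Medians of the gene lists changed sign in 13 lists with a common sum, 7 with median-ratio scaling and 8 with the protein-coding sum.

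The 21 genes whose change differed between backgrounds were less stable in number. There were 33 with a pseudocount of 0.1, 72 without a filter, 46 with a filter at 5 FPKM and 2 in a fit of the 8 control libraries, and leaving out 1 replicate gave 0 to 672. The cause was not tested. The replicate number as a block gave 4749 rises and 4419 falls between stages but 4 genes for the difference between backgrounds. Deviations of same-numbered libraries from their group means correlated between stages across genes at r = -0.02 in mixed-background and 0.14 in B6 controls, and the labels tie no libraries of the same number together, so the block is not read as a pairing. Depth limits cannot be stated from FPKM, and with 2 libraries a group the spread is estimated over all 16.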

Other observations

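A few RNAs differed by far more between libraries than the test could call. The miRNA model AC157822.1 stood at 0.0231 and 0.806 FPKM in mixed-background 2-cell embryos, against 1402 and 1440 FPKM in mixed-background 1-cell embryos, and did not pass (log2 change -10.03, SE 5.49, limma adjusted p = 0.144). In B6 embryos it had 0.144 and 2336 FPKM in the 2-cell libraries, against 0.537 and 937 FPKM in the 1-cell libraries, so that replicates of both B6 groups parted. In m-z+Dppa2 embryos it had 2.08 and 3820 FPKM in the 2-cell libraries, against 1.23 and 0.107 FPKM in the 1-cell libraries. AC157822.1, at chromosome 12, 69361179 to 69361258, lies almost wholly within Rn7s2, at 69361182 to 69361481 on the same strand. Reads of this model and of Rn7s2 may therefore not be separable. Mir8114 had 178 and 162 FPKM in mixed-background 2-cell embryos, against 0.407 and 6.72 FPKM in mixed-background 1-cell embryos, and did not pass either (limma adjusted p = 0.0591). In B6 embryos its values were 0.372 and 0.490 FPKM in the 2-cell libraries, against 13.7 and 9.97 FPKM in the 1-cell libraries. Both were picked after their values were seen.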
